A study of Mus musculus with 13 samples.

Results

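Esrrg, Esrrb, Wnt7a, Npas1, Htr1d, Nxph4 and Stk32a are genes listed as markers of gamma motoneurons, the motoneurons that control muscle spindles. The members were given as mouse symbols and were found by matching the Ensembl identifiers of the count tables to GENCODE M21 names. All 7 were present among 48709 gene rows, and all 7 were among the 17403 genes that passed the filter on low counts. Their levels were described in pools of lumbar motoneurons cut from 65-day-old SOD1-G93A mice, which carry a mutant human SOD1 transgene and are a model of amyotrophic lateral sclerosis. The AAV-miR SOD1 group (n = 4 mice) had received, as neonates and into the cerebral ventricles, an adeno-associated virus that makes an artificial microRNA against human SOD1 in astrocytes. The AAV-miR ctrl group (n = 5) had received a control vector by the same route, and the non-injected group (n = 4) were littermates without injection. Every mouse carried the transgene, so the libraries hold no healthy reference.

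Each library came from 500 motoneurons of 1 mouse, pooled before RNA extraction. Capture was guided by cresyl violet staining of 14 µm sections and not by a subtype marker, and the cord was still inside its vertebrae when it was frozen. A pool therefore mixes motoneuron subtypes in a proportion that was not recorded. In such a pool, fewer gamma motoneurons and less marker RNA per gamma motoneuron cannot be told apart.

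Gamma, or fusimotor, motoneurons innervate the intrafusal fibres of muscle spindles and set the sensitivity of these stretch receptors, while alpha motoneurons drive the force-producing extrafusal fibres. Gamma motoneurons are small, lack direct input from spindle afferents and carry little of the neuronal nuclear protein NeuN, the product of Rbfox3. In SOD1 mutant mice they are known to survive while fast alpha motoneurons degenerate. The nuclear receptors encoded by Esrrg and Esrrb are the markers most used for them, the secreted ligand Wnt7a and the serotonin receptor Htr1d mark them from around birth onward, and the set also holds the transcription factor Npas1, the secreted protein Nxph4 and the kinase Stk32a.

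The 2 nuclear receptors are close relatives, and their sequences are shown because they bear on whether reads of the pair can be separated. Over the 90 coding bases in which their transcripts are most alike, in GRCm38 with GENCODE M21 exons, 78 bases were identical (86.7%). Capitals mark the 12 bases that differ. Both stretches lie on the plus strand and cross 1 intron, so that the coordinates span it.
Esrrg, chr1:188043719-188066399: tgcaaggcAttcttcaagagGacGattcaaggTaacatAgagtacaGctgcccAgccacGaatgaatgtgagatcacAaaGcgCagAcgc
Esrrb, chr12:86470525-86488605: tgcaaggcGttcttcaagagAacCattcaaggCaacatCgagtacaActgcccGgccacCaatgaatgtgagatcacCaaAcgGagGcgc
The differences are spread through the window.

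The longest coding stretches shared without a mismatch by members and a relative are printed for 4 pairs, with their position in the member named first.
Esrrg with Esrrb, chr1:188043386-188043402, plus strand: tccttcatcaagacgga
Wnt7a with Wnt7b, chr6:91366267-91366289, minus strand: ggtgtgtcaggctcctgtaccac
Htr1d with Htr1b, chr4:136442861-136442880, plus strand: tactgggccatcaccgatgc
Nxph4 with Nxph3, chr10:127526143-127526166, minus strand: actggtgcagaaggtgtgcccaga
These runs were 17, 23, 20 and 24 bases long. Longest runs for further pairs were 31 bases for Stk32a with Stk32c, 22 for Esrrb with Esrra, 16 for Esrrg with Esrra and 13 for Npas1 with Npas3. The read length is not given in the sources used here, so how many reads could fall inside such a run was not tested.

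The members lie on 7 chromosomes of GRCm38, and each is a protein-coding gene. Esrrg (ENSMUSG00000026610) spans chr1:187608791-188214885 on the plus strand and Esrrb (ENSMUSG00000021255) chr12:86361117-86521628 on the plus strand. Wnt7a (ENSMUSG00000030093) spans chr6:91363981-91411363 on the minus strand, and Nxph4 (ENSMUSG00000040258) chr10:127525473-127534559 on the minus strand. Npas1 (ENSMUSG00000001988) spans chr7:16455721-16477728 on the minus strand and Htr1d (ENSMUSG00000070687) chr4:136423524-136444398 on the plus strand. Stk32a (ENSMUSG00000039954) lies on chromosome 18. The spans of Esrrg and Npas1 overlap other annotated genes, 4 for Esrrg and 1 for Npas1, with 0 exonic bases in common, and the strand setting of the counting is not stated. RefSeq promoters (GRCm38.p6, 250 bases before to 50 after the start) were listed for 5 of the members, with 10 promoters in all. The letters AAGGTCA, the element that estrogen-related receptors bind, were in 0 of these 10 promoters and in 4.72% of all 32851 promoters, searched on both strands. The shorter AGGTCA, which AAGGTCA contains, was in 0 of 10 and in 16.26%, and the homeodomain core TAATTA in 0 of 10 and in 5.29%.

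Counts assigned to genes ranged from 13.9 to 37.4 megacounts per library, and 3 counts corresponded to 0.0749 to 0.225 counts per megacount, written as CPM. The column headers of 2 of the 13 tables, those of non-injected replicate 3 and AAV-miR ctrl replicate 3, contradict their labels. The labels were followed. The 4 libraries numbered 5 or 6 were all controls. AAV-miR ctrl replicate 1 stood apart in a further way: without it the number of genes past the adjusted threshold went from 0 to 1694 when AAV-miR SOD1 was set against both control groups. Mouse Sod1 was at 168 to 273 CPM in the AAV-miR SOD1 group, 220 to 352 in AAV-miR ctrl and 232 to 472 in non-injected, which does not check the labels because the microRNA is directed at the human transcript and made in astrocytes. Chat, the gene of the acetylcholine-synthesising enzyme, used here as a general motoneuron gene, averaged 54.8 ± 13.7 CPM (SD, n = 4), 97.4 ± 26.5 (SD, n = 5) and 109 ± 31.6 (SD, n = 4) in the same order.

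The 7 markers covered a wide range of levels. Per kilobase of exon, averaged over the 13 libraries, Nxph4 was at 9.16 ± 5.76 CPM per kb (SD, n = 13), Esrrg at 5.20 ± 1.82 and Stk32a at 1.83 ± 0.985. Esrrb followed at 0.493 ± 0.229, Wnt7a at 0.337 ± 0.161, Npas1 at 0.292 ± 0.319 and Htr1d at 0.145 ± 0.159. Nxph4 and Esrrg overlapped within these SDs, as did every neighbouring pair from Esrrb down to Htr1d, while Stk32a stood above Esrrb by more than either SD. On the same scale Chat was at 18.7 ± 7.0 CPM per kb, Rbfox3 at 11 ± 4.18 and Gfra1, a glial-derived neurotrophic factor co-receptor with high levels in gamma motoneurons, at 8.21 ± 3.91. Spp1, the osteopontin gene used as an alpha motoneuron marker, was far above all of them at 3120 ± 1220 CPM per kb. The pools also held RNA of other cells, described below, and how much of the Spp1 level came from motoneurons was not tested.

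**Figure D1:**
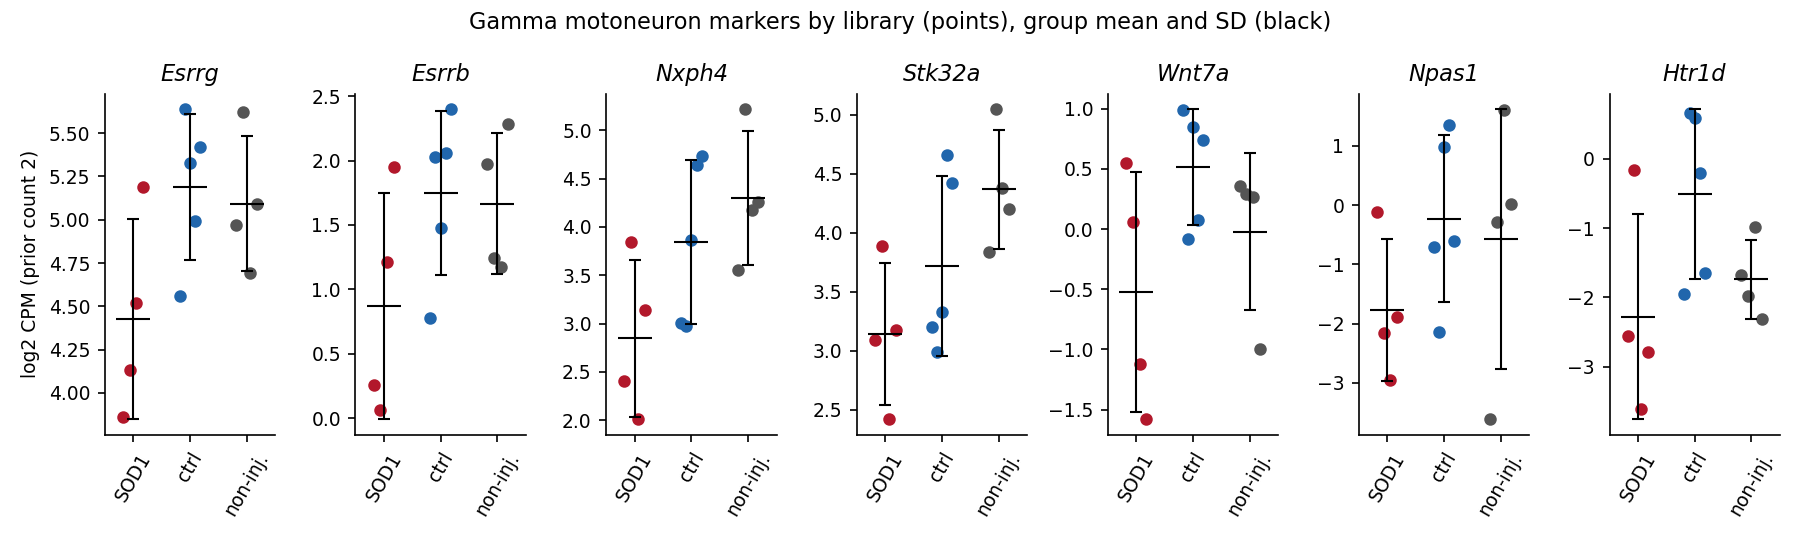
Level of each of the 7 markers on the log2 CPM scale (prior count 2, vertical axis, a separate range per gene) in the AAV-miR SOD1 (n = 4), AAV-miR ctrl (n = 5) and non-injected (n = 4) groups. Points are libraries and black lines the group mean with its SD. The 3 groups overlap for every marker, and Npas1 and Htr1d have the widest spread.

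No marker passed the test across all genes in any comparison. With edgeR's quasi-likelihood test and Benjamini-Hochberg adjustment over 17403 genes, 0 of 7 members had an adjusted p under 0.05 in AAV-miR SOD1 against both control groups, where the share of all genes called was 0%. At an unadjusted p under 0.05, 3 of 7 members were called, all lower in AAV-miR SOD1, where 22.2% of all genes were called and 12.1% were called lower. The 3 were Nxph4, Stk32a and Esrrg. All 7 members had a fitted log2 fold change below 0, as had 54.2% of all genes. The median was -0.85 for the members and -0.06 for all genes. The member at that median was Htr1d, whose value had an SE of 0.92 and rested on 0 to 31 counts per library. The AAV-miR SOD1 and control libraries were without overlap for 0 of 7 members and 1.82% of all genes. The count of 3 went to 0 without AAV-miR SOD1 replicate 3, to 1 without AAV-miR SOD1 replicate 1 or non-injected replicate 3, and to 4 without non-injected replicate 2 (other omissions gave 2 or 3). Over the omissions of single libraries the share of all genes called ranged from 12.3% to 27.9%. Limma-voom called 0 of 7 members after adjustment, and DESeq2 0 of the 6 for which it gave an adjusted p (it gave none for Htr1d). Both called 3 of 7 before adjustment, where limma-voom called 28.1% of all genes and DESeq2 24.2%.

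**Figure D2:**
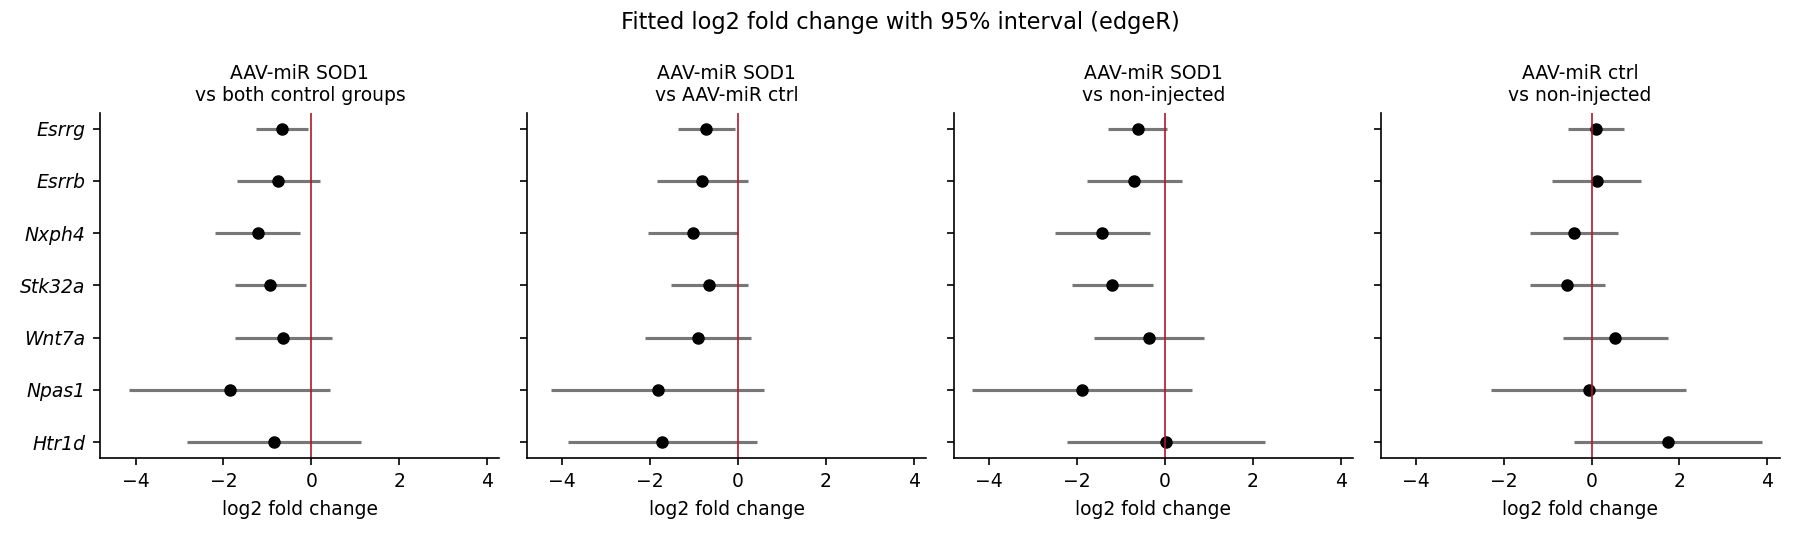
Fitted log2 fold change of each marker (horizontal axis, points) with its 95% interval (lines) from edgeR in the 4 comparisons. In AAV-miR SOD1 against both control groups all 7 points lie below 0 and the intervals of Esrrg, Nxph4 and Stk32a end below 0, while in AAV-miR ctrl against non-injected every interval includes 0.

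Esrrg encodes an orphan nuclear receptor of the estrogen-related family that promotes genes of oxidative metabolism and is the most used transcription factor marker of gamma motoneurons. It was at 14.4, 17.4, 22.9 and 36.5 CPM in AAV-miR SOD1 replicates 1, 2, 3 and 4. In AAV-miR ctrl replicates 1, 3, 4, 5 and 6 it was at 23.6, 49.9, 40.2, 31.7 and 42.8 CPM, and in non-injected replicates 2, 3, 5 and 6 at 31.2, 49.2, 25.8 and 34.0 CPM. The 3 lowest libraries were AAV-miR SOD1 libraries, but replicate 4 of that group lay within both control groups. The group means were 22.8 ± 9.76 CPM (SD, n = 4), 37.6 ± 10.2 (SD, n = 5) and 35.0 ± 10 (SD, n = 4). Against both control groups the log2 fold change was -0.67 ± 0.28 (SE), with a 95% interval of -1.26 to -0.08. The unadjusted p of the quasi-likelihood test was 0.0284 and the adjusted p 0.172, with adjusted p from 0.0893 to 0.769 over the alternatives.

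Esrrb encodes the other receptor, which is also known from pluripotent stem cells. Its AAV-miR SOD1 libraries were at 1.11, 0.960, 2.23 and 3.79 CPM in the same order of replicates. The AAV-miR ctrl libraries were at 1.63, 4.0, 2.70, 4.10 and 5.21 CPM and the non-injected ones at 3.83, 2.28, 2.17 and 4.77 CPM. AAV-miR SOD1 replicates 1 and 2 were the lowest of all 13, as they were for Esrrg, and replicate 4 was again inside the control range. The log2 fold change against both control groups was -0.75 ± 0.44 (SE), with an interval of -1.70 to 0.19 and an adjusted p of 0.338 in edgeR. The sizes for the pair were alike within their errors, and the difference of Esrrb did not pass the unadjusted rule.

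Nxph4 encodes a neurexophilin, a secreted glycoprotein of a family that binds alpha-neurexins at synapses. Its AAV-miR SOD1 libraries were at 5.21, 14.2, 3.93 and 8.72 CPM. The AAV-miR ctrl libraries were at 8.0, 7.76, 14.4, 24.8 and 26.5 CPM, and the non-injected ones at 11.7, 37.2, 17.9 and 19.1 CPM. Replicates 1 and 3 of the AAV-miR SOD1 group were below every control, and replicate 2 was above 3 controls. Nxph4 had the smallest p among the members against both control groups. Its log2 fold change was -1.22 ± 0.45 (SE), with an interval of -2.19 to -0.26, an unadjusted p of 0.0168 and an edgeR adjusted p of 0.140. Its adjusted p ranged from 0.0556, in DESeq2, to 0.973 over the alternatives.

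Stk32a encodes a serine/threonine kinase (YANK1) whose role in motoneurons is little described. The AAV-miR SOD1 libraries were at 8.46, 14.8, 5.26 and 8.98 CPM. The AAV-miR ctrl libraries were at 9.10, 7.85, 9.97, 25.2 and 21.4 CPM, and the non-injected ones at 14.2, 33.0, 20.7 and 18.3 CPM. As for Nxph4, AAV-miR SOD1 replicate 3 was the lowest library and non-injected replicate 3 the highest. AAV-miR ctrl replicate 3 was below 3 of the 4 AAV-miR SOD1 libraries. The log2 fold change against both control groups was -0.93 ± 0.38 (SE), with an interval of -1.73 to -0.12, an unadjusted p of 0.0271 and an edgeR adjusted p of 0.168.

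Wnt7a encodes a secreted Wnt ligand that acts on axons and synapses and is among the earliest gamma motoneuron markers. It was at 1.38, 0.960, 0.379 and 0.253 CPM in the AAV-miR SOD1 group, at 1.90, 0.867, 1.72, 0.973 and 1.59 CPM in AAV-miR ctrl and at 1.20, 1.14, 1.12 and 0.417 CPM in non-injected. These levels rested on 4 to 47 counts per library. AAV-miR SOD1 replicates 3 and 4 were the lowest, whereas for Esrrg and Esrrb replicates 1 and 2 were. Against both control groups its log2 fold change was -0.64 ± 0.51 (SE), with an interval of -1.74 to 0.46 and an edgeR adjusted p of 0.502.

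Npas1 and Htr1d had few counts in most libraries. Npas1, a basic helix-loop-helix PAS transcription factor that acts mainly as a repressor, was covered by 19, 3, 1 and 3 counts in AAV-miR SOD1. It had 12, 3, 25, 94 and 17 counts in AAV-miR ctrl and 0, 13, 118 and 31 counts in non-injected. In CPM these were 0.846, 0.144, 0.0474 and 0.190, then 0.530, 0.145, 1.87, 2.47 and 0.575, then 0, 0.740, 2.95 and 0.924. Of the 13 libraries 5, including 2 controls, were at 3 counts or fewer, and the highest values came from 3 control libraries. The log2 fold change against both control groups was -1.86 ± 1.06 (SE), the largest in size among the members, and its interval of -4.14 to 0.42 was also the widest (edgeR adjusted p = 0.325).

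Htr1d, an inhibitory serotonin receptor coupled to Gi proteins, was covered by 2, 17, 0 and 1 counts in AAV-miR SOD1. It had 4, 31, 19, 30 and 7 counts in AAV-miR ctrl and 5, 3, 17 and 4 in non-injected. The levels were 0.0890, 0.816, 0 and 0.0632 CPM, then 0.177, 1.49, 1.42, 0.789 and 0.237 CPM, then 0.231, 0.171, 0.425 and 0.119 CPM. The highest 2 libraries were AAV-miR ctrl replicates 3 and 4, and AAV-miR SOD1 replicate 2 came next. Its fitted log2 fold change against both control groups was -0.85 ± 0.92 (SE), with an interval of -2.82 to 1.13 (edgeR adjusted p = 0.636). The intervals of Htr1d and Npas1 both include 0 and the sizes fitted for Esrrg and Nxph4.

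The comparison with AAV-miR ctrl sets the microRNA apart from vector and injection. All 7 members had a log2 fold change below 0, as had 53.7% of all genes, with a median of -0.91 against -0.04 for all genes. After adjustment edgeR called 0 of 7, against 0% of all genes, and 1 of 7, Esrrg, had an unadjusted p under 0.05. The shares of all genes were 14.5% in either direction and 8.54% lower, so that 1 of 7 is near the background. The AAV-miR SOD1 and AAV-miR ctrl libraries were without overlap for 0 of 7 members and 3.73% of all genes. Esrrg was at -0.72 ± 0.30 (SE), with an unadjusted p of 0.0306 and an edgeR adjusted p of 0.307, and Nxph4 at -1.03 ± 0.48 (SE), with an unadjusted p of 0.0521 and an adjusted p of 0.349. The other values were -0.81 ± 0.48 for Esrrb, -0.65 ± 0.41 for Stk32a, -0.91 ± 0.56 for Wnt7a, -1.83 ± 1.13 for Npas1 and -1.72 ± 1.01 for Htr1d, with adjusted p from 0.443 to 0.469. The count of 1 went to 0 without AAV-miR SOD1 replicate 3, AAV-miR ctrl replicate 4 or AAV-miR ctrl replicate 6. It went to 2 without AAV-miR SOD1 replicate 1 or 4, AAV-miR ctrl replicate 1 or non-injected replicate 3, and to 3 without AAV-miR SOD1 replicate 2. Over the omissions of single libraries the share of all genes called ranged from 6.68% to 23.2%.

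Against the non-injected littermates, which differ by microRNA, vector and injection together, 6 of 7 members were below 0, as were 55.1% of all genes. Again edgeR called 0 of 7 members and 0% of all genes after adjustment. Nxph4 and Stk32a made up the 2 of 7 with an unadjusted p under 0.05, where 20.9% of all genes were called and 11.5% called lower. Nxph4 was at -1.42 ± 0.51 (SE), with an unadjusted p of 0.0140, and Stk32a at -1.20 ± 0.43 (SE), with an unadjusted p of 0.0138. Both had an edgeR adjusted p of 0.153. The 2 groups were without overlap for 0 of 7 members and 11.7% of all genes. Esrrg was at -0.62 ± 0.31, Esrrb at -0.70 ± 0.50, Wnt7a at -0.37 ± 0.59, Npas1 at -1.89 ± 1.17 and Htr1d at 0.03 ± 1.05 (SE). Without non-injected replicate 3, whose header contradicts its label, the count of 2 went to 0. It went to 1 without AAV-miR SOD1 replicate 3 and to 4 without AAV-miR SOD1 replicate 4. Over the omissions of single libraries the share of all genes called ranged from 13.6% to 23.3%. The comparisons with the 2 control groups share the AAV-miR SOD1 libraries, so their values are not independent.

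The control vector against no injection gave no call for any member. After adjustment edgeR called 0 of 7, against 0% of all genes. The unadjusted rule gave 0 of 7 members and 3.61% of all genes, and groups without overlap were found for 0 of 7 and 0.816%. Values below 0 were found for 3 of 7 members and 52.0% of all genes. Esrrg was at 0.10 ± 0.30 (SE) and Esrrb at 0.12 ± 0.47, Wnt7a at 0.54 ± 0.55 and Npas1 at -0.06 ± 1.04. Nxph4 was at -0.39 ± 0.47 and Stk32a at -0.55 ± 0.40. Htr1d, at 1.74 ± 0.99, with an interval of -0.39 to 3.87 and an unadjusted p of 0.101, had the largest value, and its AAV-miR ctrl and non-injected libraries still overlapped.

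Genes used here as general motoneuron genes were also lower in the AAV-miR SOD1 pools. Whether their levels differ between motoneuron subtypes was not tested. Of a list of 8 general motoneuron genes, 8 of 8 were lower against both control groups at an unadjusted p under 0.05. Their median log2 fold change was -1.06, and 0 of 8 had an adjusted p under 0.05. By the same unadjusted rule 12.1% of all genes were called lower. Slc5a7, the choline transporter, was at -1.01 ± 0.25 (SE) and Chat at -0.91 ± 0.24, both with an edgeR adjusted p of 0.0960. Both had no overlap between AAV-miR SOD1 and control libraries, as had 1.82% of all genes. Slc18a3, the vesicular acetylcholine transporter, was at -1.24 ± 0.39 with an adjusted p of 0.107. Without AAV-miR ctrl replicate 1 all 3 passed, with edgeR adjusted p of 0.0258 for Slc5a7, 0.0292 for Chat and 0.0394 for Slc18a3. In that fit 1694 of the 17217 genes tested passed. The summed level of the list was 1380 to 2510 CPM in AAV-miR SOD1, 2000 to 4560 in AAV-miR ctrl and 2230 to 5290 in non-injected, with 0 of the 8 genes at 0 throughout any group. The 7 gamma markers summed to 31.5 to 58.5, 44.9 to 98.3 and 62.3 to 124 CPM in the same order.

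With the mean log2 CPM of those 8 genes as a covariate in the fit, Nxph4 and Stk32a moved to near 0 and changed sign. The log2 fold change against both control groups was then 0.05 ± 0.29 (SE) for Nxph4 (unadjusted p = 0.864 in edgeR) and 0.14 ± 0.24 for Stk32a (unadjusted p = 0.564). Esrrg was at -0.49 ± 0.38 and Esrrb at -0.63 ± 0.63. Wnt7a was at -0.74 ± 0.66, Npas1 at -0.26 ± 1.54 and Htr1d at -0.34 ± 1.12. At an unadjusted p under 0.05 there were 0 of 7 members and 6.46% of all genes. The covariate itself differs between the groups, so the fit also takes out part of any difference that the groups share with it. No test compared the members' shifts with one another.

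**Figure D3:**
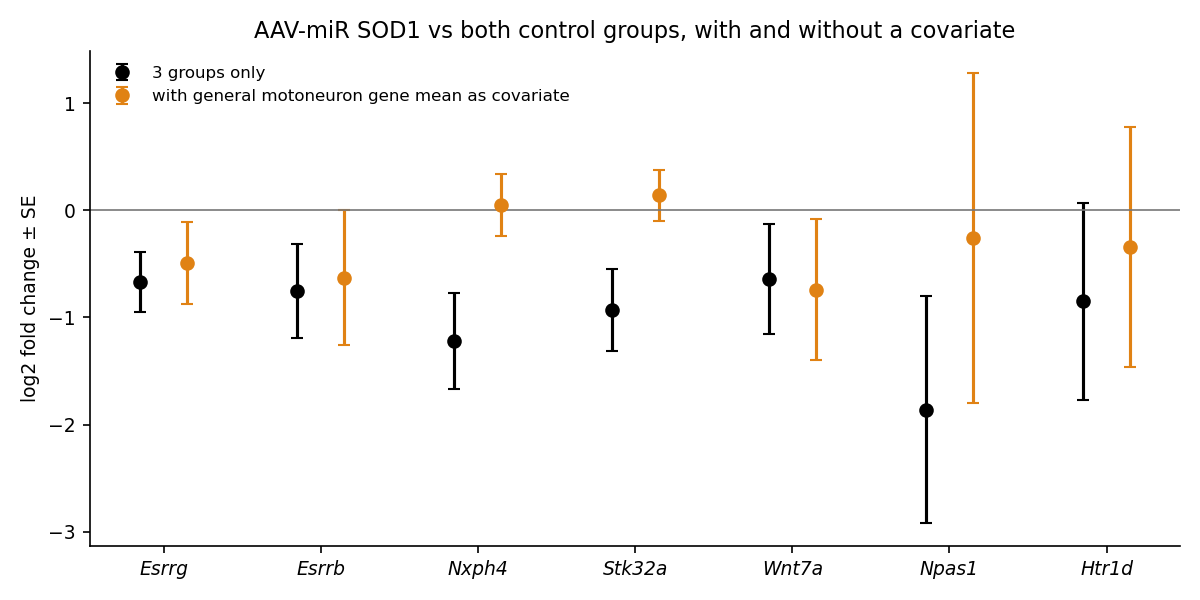
Log2 fold change ± SE of each marker in AAV-miR SOD1 against both control groups (vertical axis), from the fit on the 3 groups (black) and with the mean of 8 general motoneuron genes as a covariate (orange). Nxph4 goes from -1.22 to 0.05, Stk32a from -0.93 to 0.14, Esrrg from -0.67 to -0.49 and Esrrb from -0.75 to -0.63. Npas1 goes from -1.86 to -0.26 and Htr1d from -0.85 to -0.34, and Wnt7a stays below 0.

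Library by library, the general motoneuron mean was at 5.59, 6.22, 5.38 and 5.73 log2 CPM in the AAV-miR SOD1 libraries. It was at 5.75, 6.27, 6.31, 7.36 and 7.14 in AAV-miR ctrl and at 6.12, 7.52, 7.16 and 6.88 in non-injected. AAV-miR ctrl replicates 5 and 6 and non-injected replicates 3, 5 and 6 were the 5 highest, and these 5 were also the 5 highest for Stk32a and for Nxph4. Esrrg did not follow that order: AAV-miR ctrl replicate 3 had the highest level of all 13 libraries and non-injected replicate 5 was lower than AAV-miR SOD1 replicate 4. Expressed as log2 CPM minus the motoneuron mean, Esrrg was at -1.30 ± 0.72 (SD, n = 4) in AAV-miR SOD1, -1.38 ± 0.68 (SD, n = 5) in AAV-miR ctrl and -1.83 ± 0.54 (SD, n = 4) in non-injected. Stk32a was at -2.58 ± 0.27, -2.85 ± 0.29 and -2.56 ± 0.22, and Nxph4 at -2.88 ± 0.47, -2.72 ± 0.36 and -2.62 ± 0.28. On this relative scale the group means of Esrrg, and those of Nxph4, were within 1 SD of each other, and for Stk32a the AAV-miR ctrl mean was the lowest.

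**Figure D4:**
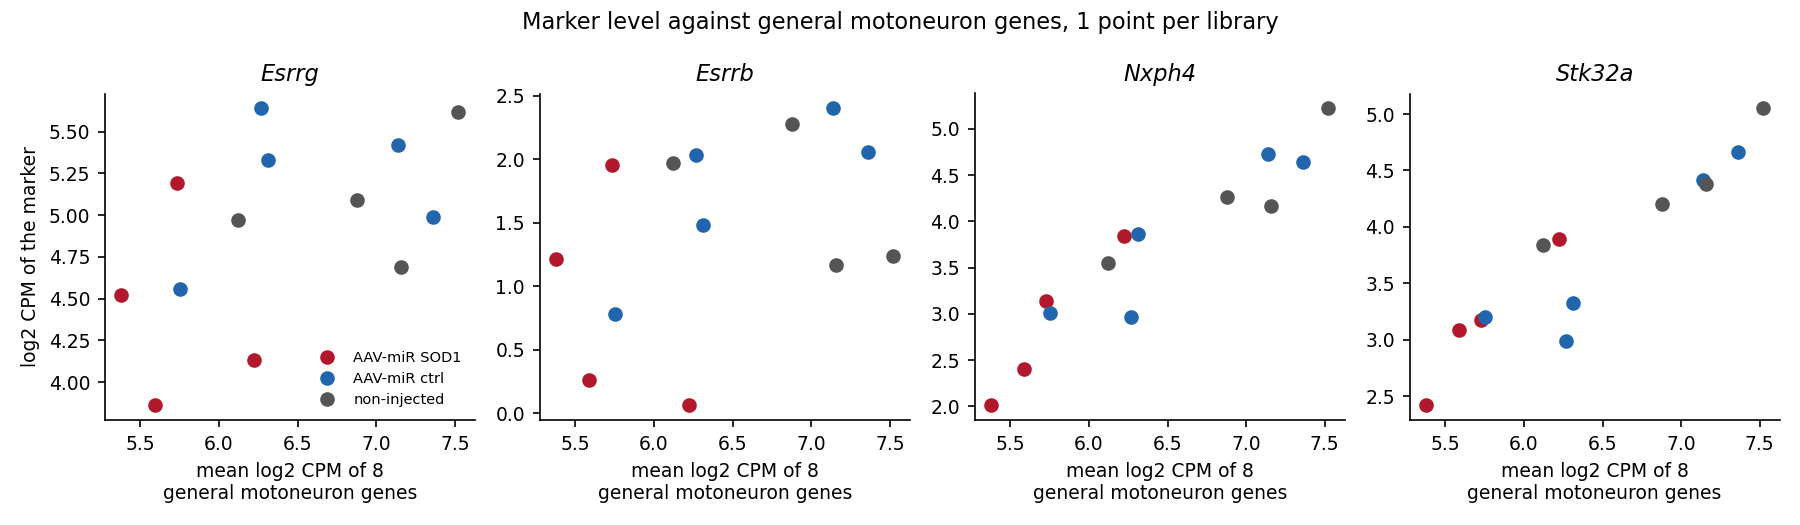
Log2 CPM of Esrrg, Esrrb, Nxph4 and Stk32a (vertical axes, a separate range per gene) against the mean log2 CPM of 8 general motoneuron genes (horizontal axis), with 1 point per library coloured by group. The AAV-miR SOD1 libraries lie at 5.38 to 6.22 on the horizontal axis, and the points of Nxph4 and Stk32a lie closer to a line than those of Esrrg and Esrrb.

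How alike the members' patterns were was measured by the root-mean-square difference between mean-centred log2 CPM profiles over the 13 libraries, where 0 is identical. The measure grows with a gene's own spread, which on the same scale was 0.53 for Esrrg, 0.72 for Esrrb, 0.91 for Nxph4, 0.74 for Stk32a, 0.76 for Wnt7a, 1.58 for Npas1 and 1.27 for Htr1d. Nxph4 and Stk32a were the closest pair, at 0.30, and Stk32a ranked 12 among all genes tested for likeness to Nxph4. Esrrg and Esrrb differed by 0.46, which put Esrrb at rank 2161 for Esrrg. Esrrg differed from Stk32a by 0.76, from Nxph4 by 0.78 and from Rbfox3 by 0.53, which is no closer than a flat profile would be. Stk32a was closer to Rbfox3, the gene low in gamma motoneurons, at 0.33 than to Esrrg. The largest difference, 1.73, was between Esrrb and Npas1, the member with the widest spread. These values share library depth and content and are a description of 13 pools.

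Among all genes, the profiles closest to Esrrg were those of Fam229b and Tacc2, at 0.20 each, and Gm29164, at 0.23. For Esrrb they were Pacsin3 at 0.29 and Castor2 and Parp3 at 0.30. Nxph4 was closest to the ephrin gene Efna3 at 0.24, the vesicular acetylcholine transporter gene Slc18a3 at 0.25 and the adhesion molecule gene L1cam at 0.26. Stk32a was closest to Ttc39a at 0.18, Flt3 at 0.19 and Clba1 at 0.23. The markers with few counts had looser neighbours. Wnt7a was at 0.48 from 9330118I20Rik and Myrf and at 0.49 from 4933427D14Rik. Htr1d was at 0.75 from Syt5 and at 0.84 from Gm20633. Npas1 was at 0.91 from Notum, 0.92 from AV039307 and 0.93 from Rasd2.

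**Figure D5:**
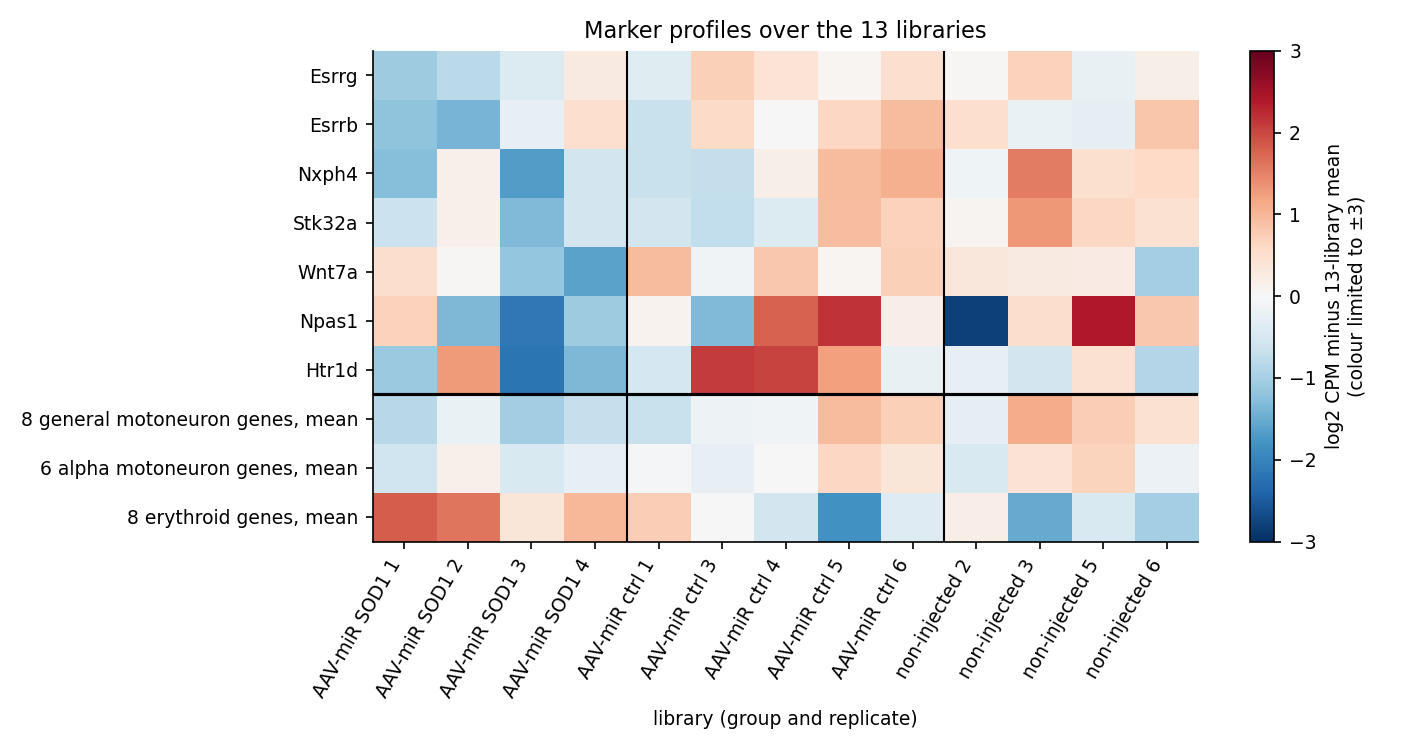
Log2 CPM of each of the 7 markers in each of the 13 libraries minus the marker's mean over all libraries, as colour (red above, blue below, limited to ±3), with the means of the general motoneuron, alpha and erythroid lists below the line. The 5 libraries highest in the general motoneuron row are also the 5 highest for Nxph4 and Stk32a, and AAV-miR SOD1 replicates 1 and 2 are blue for Esrrg and Esrrb.

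Other subtype markers were compared in the same fit. Of 5 further gamma-enriched genes, 1 was lower at an unadjusted p under 0.05 and 0 higher, with a median of -0.59 against both control groups, where 12.1% of all genes were lower and 10.2% higher. That gene was Gfra1, at -1.07 ± 0.32 (SE), with an unadjusted p of 0.00492 and an edgeR adjusted p of 0.103. It passed with an adjusted p of 0.0448 without AAV-miR ctrl replicate 1 and with 0.024 in DESeq2. Of 6 alpha or fast motoneuron genes, 2 were lower and 0 higher, against the same shares, with a median of -0.47. Calca, the calcitonin gene-related peptide gene, was at -1.25 ± 0.41 (adjusted p = 0.115), and Vipr2, a receptor for vasoactive intestinal peptide, at -0.86 ± 0.28 (adjusted p = 0.116). Rbfox3 was at -0.58 ± 0.28 with an unadjusted p of 0.0574 and an adjusted p of 0.242. It averaged 47.9 ± 11.7 CPM (SD, n = 4), 68.6 ± 25.1 (SD, n = 5) and 74.4 ± 29.4 (SD, n = 4) in AAV-miR SOD1, AAV-miR ctrl and non-injected. Values below 0 were found for 4 of the 5 further gamma genes and 5 of the 6 alpha genes. The exceptions, named after their values were seen, were Pard3b at 0.36 ± 0.35 and Mmp9, listed here as a marker of fast alpha motoneurons, at 0.48 ± 0.42. Neutrophil granule genes, described below, had a median of 0.98 in the same comparison. Whether the Mmp9 RNA came from motoneurons or from such cells was not tested. A difference between the lists was not tested.

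Over 7 lists of relatives and partners of the members, 7 of 61 tested genes (11.5%) were lower against both control groups at the unadjusted rule and 0 higher, near the 12.1% lower of all genes, and edgeR called 0 after adjustment. Among estrogen-related receptor partners and motoneuron genes linked to them, 8 of 9 were tested, 1 was lower and 0 higher, with a median of -0.37. That gene was the coactivator gene Ncoa1, at -0.43 ± 0.17 (SE, unadjusted p = 0.0241 in edgeR). Of 18 other Wnt ligand genes 13 were tested, with 1 lower, 0 higher and a median of -0.19, and the 1 was Wnt3 at -1.56 ± 0.50 (unadjusted p = 0.00758). Of 18 Wnt receptor and response genes 0 were called in either direction, with a median of -0.12, and Ctnnb1, the beta-catenin gene with the highest level, was at -0.17 ± 0.31. Of 7 PAS-domain relatives and partners of Npas1, 6 were tested and 0 called, with a median of -0.51, and Arnt, a general dimer partner with the highest level there, was at -0.07 ± 0.21.

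Among 13 other serotonin receptor genes 8 were tested and 2 were lower, with a median of -0.52. Htr3a, a ligand-gated channel subunit, was at -2.29 ± 0.85 (SE, unadjusted p = 0.0176 in edgeR) and Htr5a at -0.93 ± 0.41 (unadjusted p = 0.0378). Of 6 other neurexophilin and neurexin genes 2 were lower and 0 higher, with a median of -0.44. Nxph1, another neurexophilin gene, was at -1.07 ± 0.41 (unadjusted p = 0.0203). Of the 2 relatives of Stk32a 1 was lower, Stk32c at -1.36 ± 0.61 (unadjusted p = 0.0434), and their median was -1.53.

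Lists of genes of other cells are given with the share of all genes called higher against both control groups, 10.2%, and the 12.1% called lower. Of 8 erythroid genes 8 were higher in AAV-miR SOD1 at an unadjusted p under 0.05, with a median of 1.64. Klf1, an erythroid transcription factor gene, was at 1.81 ± 0.41 (SE) and Slc4a1, the anion exchanger gene of red cells, at 1.8 ± 0.42, each with an edgeR adjusted p of 0.0960, which went under 0.05 without AAV-miR SOD1 replicate 3 or without AAV-miR ctrl replicate 1. The summed level of this list was 21100 to 47800 CPM in AAV-miR SOD1, 3600 to 28300 in AAV-miR ctrl and 5610 to 20400 in non-injected, and 0 of the 8 genes were at 0 throughout any group.

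Neutrophil granule genes were higher in 3 of 7 cases, with a median of 0.98 (Camp 1.18, Ltf 1.02 and Ngp 0.99), and B lineage genes in 2 of 7, with a median of 0.73 (Cd79b 0.99 and Cd79a 0.92). Neutrophil granule genes summed to 9680 to 28700 CPM in AAV-miR SOD1, 5600 to 22400 in AAV-miR ctrl and 7100 to 9150 in non-injected, and B lineage genes to 242 to 514, 161 to 398 and 66.3 to 247 CPM. Of 8 microglial genes 3 were higher, with a median of 0.52, namely Tyrobp at 1.00 ± 0.30, Cx3cr1 at 0.83 ± 0.26 and Aif1 at 0.72 ± 0.32. The microglial sum was 728 to 1000, 417 to 1200 and 255 to 679 CPM in the same order. Astrocyte genes gave 1 lower of 7 (Aldoc at -0.96 ± 0.24, median -0.29) and interneuron genes 1 lower of 8 tested from 10 (Calb2 at -1.05 ± 0.39, median -0.20). Oligodendrocyte genes gave 0 of 7 (Mbp -0.54 ± 0.39, median -0.53) and endothelial genes 0 of 6 (Pecam1 -0.01 ± 0.30, median -0.04). No gene of these lists had an adjusted p under 0.05 in edgeR on all 13 libraries. The part of these cells in the levels of the gamma markers was not tested.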

How the data were processed

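RNA of 500 laser-captured motoneurons per mouse was amplified with a low-input full-length cDNA kit, per the labels' protocols. The authors deposited raw read counts per Ensembl gene with 5 summary rows per table, which were left out. The submitters' processing notes name cutadapt 1.8, STAR 2.5.2b, HTSeq 0.6.1 and GRCm38, without strand or annotation. Groups came from the titles.

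Genes were filtered with filterByExpr (minimum count 10, minimum total 15), scaled by TMM and tested with edgeR 4.0.16 in R 4.3.3 (quasi-likelihood F test, 13 libraries, 10 residual degrees of freedom, Benjamini-Hochberg over all genes tested, threshold 0.05). P-values measure the spread between mice. Log2 CPM used a prior count of 2. Levels per kilobase used GENCODE M21 exons. The fits were tested on simulated data. No pair of the 13 libraries was a copy (smallest chi-square per degree of freedom 38.9 over 78 pairs).

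The members and the 18 other lists were chosen with earlier results of these data known. Named genes are the members, Rbfox3, Chat, Sod1, the 3 closest profiles to each member, and, per list, up to 3 genes with the smallest unadjusted p under 0.05 or otherwise the one with the highest level. A few genes that the rule names are not reported here. Exceptions are genes named for their sequence or for their level (Gfra1, Spp1, Pvalb). Alternatives were other scalings, no filter, DESeq2 1.42.0, limma-voom (limma 3.58.1), fewer groups, a replicate block, a motoneuron covariate, fewer libraries and the header exchange. Leaving out both libraries with contradicting headers was added after the data were seen.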

Additional observations from a re-analysis of the deposited data

Results flagged for a closer look

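Among 30 sets of log2 CPM values (each marker, and the summary values, in each group of 4 or 5 libraries), 1 held a library far from the others, where chance alone gives about 1 in 20, or 1.5 of 30. It was Wnt7a in the non-injected group, where replicate 6 was at -1.0 log2 CPM and the other 3 libraries lay between 0.27 and 0.36. This library had 14 counts of Wnt7a.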

How the results depend on the processing

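After adjustment no marker with an adjusted p was called in any comparison under the alternatives run. Htr1d did not pass the filter in the fit on AAV-miR SOD1 and non-injected alone, and DESeq2 gave no adjusted p for Htr1d in the 3 comparisons with AAV-miR SOD1, nor for Npas1 against non-injected. DESeq2 and limma-voom called 1480 and 1461 of all genes in AAV-miR SOD1 against both control groups, where edgeR called 0. The value of Esrrg, Esrrb, Wnt7a, Npas1 and Htr1d against both control groups was below 0 under every alternative run. The cause of the differences below was not tested.

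The number of markers at an unadjusted p under 0.05 is given with the share of all genes called in brackets. Against both control groups the main fit gave 3 (22.2%). The number was 1 with the replicate block (11.1%), 0 with the motoneuron covariate (6.46%) and 1 in the libraries numbered 1 to 4 (14.2%). It ranged from 0 to 4 (12.3% to 27.9%) when single libraries were left out. Against AAV-miR ctrl the main fit gave 1 (14.5%). The number was 2 without the filter (10.7%), 2 in DESeq2 (16.7%) and 3 in limma-voom (21.9%). It was 0 with the covariate (6.33%), 0 in the libraries numbered 1 to 4 (4.88%) and 3 with the headers followed (19.9%). Without single libraries it was 0 to 3 (6.68% to 23.2%). Against non-injected the main fit gave 2 (20.9%). The number was 1 with the block (8.28%), 0 with the covariate (5.77%) and 0 with the headers followed (14.8%). It was 0 without both libraries in question (12.7%) and 0 to 4 without single libraries (13.6% to 23.3%). For AAV-miR ctrl against non-injected the main fit gave 0 (3.61%). The number was 1, Htr1d, in the fit on those groups alone (3.15%). It was 1, Stk32a, in the libraries numbered 1 to 4 (5.07%), and 0 to 0 without single libraries (2.93% to 5.66%).

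Signs turned in these cases. With the covariate Nxph4 was at 0.05, 0.06 and 0.04 and Stk32a at 0.14, 0.28 and 0.01 against both control groups, AAV-miR ctrl and non-injected, and Npas1 at 0.01 against non-injected and 0.54 for AAV-miR ctrl against non-injected. In the libraries numbered 1 to 4, Stk32a was at 0.08 against AAV-miR ctrl, and AAV-miR ctrl against non-injected gave -0.08 for Esrrg, -0.13 for Esrrb and 1.19 for Npas1. Htr1d against non-injected was at -0.86 in limma-voom, -0.54 with the replicate block, -1.18 with the headers followed, -0.02 without both libraries and -2.11 to 0.56 without single libraries. For AAV-miR ctrl against non-injected, Npas1 was at 0.01 with upper quartile scaling and 0.05 in limma-voom. The headers gave -0.21 for Esrrb, 0.28 for Npas1, -0.02 for Htr1d, 0.65 for Nxph4 and 0.37 for Stk32a. Leaving out both libraries gave -0.06 for Esrrb, 0.11 for Npas1 and 0.20 for Nxph4. Leaving out single libraries gave -0.05 to 0.36 for Esrrb, -0.02 to 0.31 for Esrrg, -0.61 to 1.02 for Npas1 and -0.63 to 0.01 for Nxph4. Of 28 genes named from the lists or always named, 5 turned sign against both control groups, all with the covariate. Of these 28 genes, 16 passed the adjusted threshold in DESeq2, 16 in limma-voom, 16 without AAV-miR ctrl replicate 1 and 3 without AAV-miR SOD1 replicate 3, against 0 in edgeR on all libraries. Among all genes tested the numbers were 1480 of 17403, 1461 of 17403, 1694 of 17217 and 121 of 17824. Apart from those always named, the genes were picked for a small p in this same comparison. That choice favours their passing in other fits of these libraries, so the counts are no separate evidence.

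Over 8 same-numbered pairs of libraries the correlation of deviations from the group means ran from -0.19 to 0.24, and 3 were over 0.1. Over 48 differently numbered pairs it ran from -0.38 to 0.34, and 15 were over 0.1. The ranges overlap, and 8 pairs are too few to decide whether replicate numbers pair the libraries. With the replicate block Esrrg was at -0.72 ± 0.22 (SE) against both control groups, with an unadjusted p of 0.00888 and an adjusted p of 0.437 in edgeR. Npas1 and Htr1d had 0 counts in 1 library each and the widest intervals of the members against both control groups.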

Other observations

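The ratio of Stk32a to Rbfox3, in CPM, was 0.284 to 0.298 in the 4 non-injected libraries, 0.165 to 0.264 in AAV-miR ctrl and 0.15 to 0.236 in AAV-miR SOD1. The non-injected libraries were thus above the 9 injected ones and lay close together. The ratio was chosen after its values had been seen and was not tested. The order does not hold if the headers of the 2 libraries in question are followed, since AAV-miR ctrl replicate 3 was at 0.165. The ratio of Nxph4 to Rbfox3 was 0.243 to 0.321, 0.163 to 0.277 and 0.112 to 0.226 in the same order of groups, with overlap. The ratio of Esrrg to Rbfox3 was 0.357 to 0.649, 0.332 to 1.05 and 0.278 to 0.727, and overlapped throughout.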
